A study of Bos taurus with 15 samples.

Results

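The protein components of the cytosolic ribosome were measured in biceps brachii muscle of 15 cattle, 1 oligonucleotide array per animal. Members were taken by name: current symbols made of RPL or RPS and a number, with an optional suffix A, L, X or Y. RPLP0, RPLP1, RPLP2 and RPSA were included, and the RPS6K kinases and the mitochondrial ribosomal proteins were left out. This gave 78 genes among 15768 genes named on the array, 47 of the large and 31 of the small subunit, and all 78 were among the 15449 genes tested. Of 79 names for the human set of cytosolic ribosomal proteins 75 were members. The other 3 members, RPL3L, RPL10L and RPS27L, are paralogs encoded by genes of their own.

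The 8 treated animals (P25 to P32) had received prednisolone, a synthetic glucocorticoid, orally at 30 mg per head each day for 35 days, and the 7 controls were animals C17, C18 and C20 to C24. Samples of both groups were taken at slaughter, and the design text calls the animals cows. The RNeasy Mini kit was used for control RNA, and TRIzol with an RNeasy MinElute cleanup for treated RNA, so treatment and extraction cannot be told apart. The treatment text attached to the control samples names the growth promoters Finaplix and Revalor, the latter also with dexamethasone, although each of these samples is labelled CONTROL.

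Assembly of the ribosome, from ribosomal RNA and 1 copy of most of its proteins, begins in the nucleolus. Messenger RNAs of ribosomal proteins begin with a 5′ terminal oligopyrimidine (TOP) tract, through which LARP1 and the kinase mTOR control their translation and stability. In skeletal muscle, glucocorticoids are known to lower protein synthesis, in part through reduced mTOR signalling, and ribosome content is one of the determinants of the capacity to make protein. Arrays measure messenger RNA and carry no information on translation or on ribosome number.

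Values are log2 intensities after each array was shifted to the same 75th percentile, and a difference is always the treated mean minus the control mean on that scale. Of 10 skeletal muscle fibre markers 8 were measured, and all 8 were well above background on all 8 treated arrays. ACTA1, the skeletal muscle actin, lay between 17.28 and 17.94 over all arrays, while TNNT3 ran from 11.57 to 16.81 and TTN from 8.31 to 11.57. The percentage of spots with a value ran from 72.09% on C17 to 87.45% on C20. Transcripts of other tissues were present unevenly. Each mean of markers was taken over those with a value in that animal, so the markers entering it differ between some animals. The mean of 10 testis germ cell markers was highest on C20 (11.86) and P31 (11.22), with PRM2 not well above background on any treated array. The mean of 9 thymocyte markers was highest on C17 (8.999), and RAG1 was not well above background on any treated array. The mean of 10 hepatocyte markers was highest on P26 (8.26) and P28 (7.64), and ALB was well above background on 2 of 8 treated arrays.

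The mean log2 intensity of the probes was over 15 for 49 of the 78 genes, between 11 and 15 for 17 and under 11 for 12. On the treated arrays, for which background flags were used, 77 of 78 were well above background on all 8, and none was saturated. A value was present on all 15 arrays for 76 genes, and RPL10L and RPL28 lacked values on some, so RPL28 was fitted on 5 controls and 6 treated animals. RPL28 is among the 77, although some of the 8 flagged arrays held no value for it. Probe intensity depends on the probe as well as on the transcript, so the brightness of one gene was not ranked against that of another. Ribosomal protein genes have many processed copies in mammalian genomes, and signal from near-identical copies cannot be separated from that of the named gene.

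No ribosomal protein gene passed the test between prednisolone-treated and control muscle. In limma's moderated test across all probes, 0 of 78 genes passed an adjusted p of 0.05, beside 0.0% of all 15449 genes, and the exact Wilcoxon test likewise called 0 of 78. At an unadjusted p under 0.05 the count was again 0 of 78, beside 501 genes or 3.24% of all tested. The smallest unadjusted p among the members was 0.1004, for RPL32, with an adjusted p of 0.9933. In bulk tissue, fewer cells of a type and less RNA per cell cannot be told apart. The 2 groups overlapped for all 78 genes, while they did not overlap for 0.227% of all genes.

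The intervals say which sizes of difference remain compatible with the measurements. For 67 of the 78 genes the 95% interval of the difference lay wholly within 1.5-fold in either direction, compared with 46.5% of all genes tested. Within 2-fold the counts were 77 of 78 and 72.8%. The median half-width of the interval was 0.31 for the ribosomal proteins and 0.46 for all genes. The median SD between animals of a group was 0.27, compared with 0.41 over all genes and 0.24 over 236 other genes of mean log2 over 15. At that brightness the 49 ribosomal proteins had a median SD of 0.24, so their narrow intervals were shared by other bright genes.

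The estimates were spread closely about 0. Differences were above 0 for 53 of 78 genes and below 0 for 25, where 52.2% of all genes were above 0 and 97 of the 236 other bright genes were. The median difference was 0.038, compared with 0.011 over all genes and -0.030 over the other bright genes. The count moved with single animals: it was 35 without control C20 and 36 without control C18, with medians of -0.011 and -0.0071. Without treated P31 it was 63. By subunit, 32 of 47 large subunit genes were above 0 (median 0.040), and 21 of 31 small subunit genes (median 0.030).

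**Figure D1:**
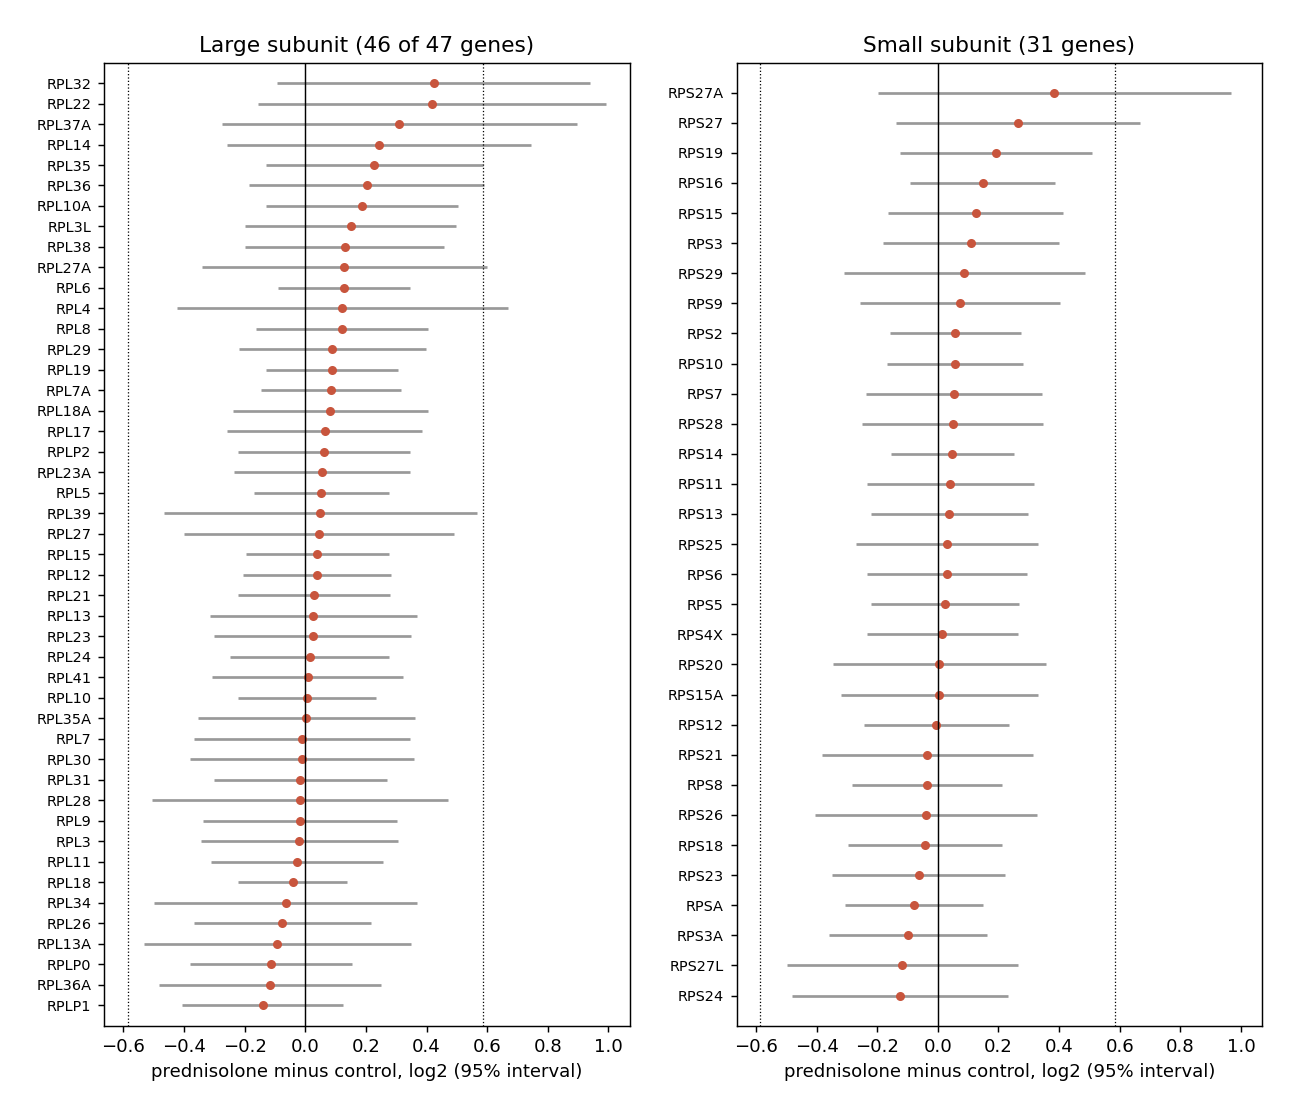
Treated minus control log2 difference of each ribosomal protein gene (points) with its 95% interval (grey lines), 7 control and 8 treated animals; dotted lines mark 1.5-fold in either direction and RPL10L, at -1.53 (-5.33 to 2.27), is left out. Every interval crosses 0, and the widest belong to dim or variable genes such as RPL32, RPL22 and RPS27A.

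Among large subunit proteins, the highest estimates came from RPL32 and RPL22. RPL32, a core protein of the large subunit, read 6.001, 7.29 and 7.68 (lowest, median and highest) in controls and 7.03, 7.51 and 8.23 in treated animals. Its difference was 0.42 (95% interval -0.09 to 0.94), and 5 of 8 treated animals were above the control median. The lowest of all was C20, and without that animal the difference was 0.23. RPL22, known for a role in T cell development beside its place in the ribosome, read 6.43, 7.504 and 8.39 in controls and 7.12, 7.93 and 8.38 in treated animals. Although 7 of 8 treated animals lay above the control median, the difference of 0.42 had an interval of -0.16 to 0.99, and without C20 it was 0.25. Both groups reached nearly the same highest value.

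RPL35, which sits near the exit of the peptide tunnel, read 11.18, 11.64 and 11.98 in controls and 11.32, 11.74 and 12.23 in treated animals. Its difference was 0.23 (-0.13 to 0.59). For RPL37A, a zinc-binding protein, the control values were 8.37, 9.25 and 9.90 and the treated values 8.34, 9.73 and 10.05. This gene had the largest SD within groups among members with a value on every array, 0.55, and its lowest animals in the 2 groups were C20 and P31. The difference was 0.31 (-0.28 to 0.90), 0.49 without P31 and 0.16 without C20.

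RPL4, whose long loop lines the tunnel, read 12.54, 13.78 and 14.42 in controls and 13.31, 13.77 and 14.32 in treated animals, with nearly equal medians. Its difference was 0.12 (-0.42 to 0.67), and without C20 it was -0.06. RPL39, a small protein at the tunnel exit, had a difference of 0.050 (-0.47 to 0.57). RPL10, among the last proteins to join the large subunit, averaged 16.75 ± 0.12 (SD, n = 7) over controls and 16.75 ± 0.21 (SD, n = 8) over treated animals. The interval of its difference, -0.22 to 0.23, was among the narrow ones. RPL18 was the steadiest of all members, with an SD within groups of 0.10 and a difference of -0.041 (-0.22 to 0.14).

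RPL5 and RPL11 bind 5S ribosomal RNA, and the free particle they form is known to hold back MDM2 and so stabilise p53. RPL5 read 15.91, 16.17 and 16.32 in controls and 15.92, 16.19 and 16.43 in treated animals. RPL11 read 16.12, 16.41 and 16.62 and then 15.92, 16.35 and 16.64. Neither pair of ranges separated the groups, and the differences were 0.053 (-0.17 to 0.28) and -0.027 (-0.31 to 0.26). RPL38, known in the mouse for its part in translating Hox messages, had a difference of 0.13 (-0.20 to 0.46), which was 0.033 without C18, and RPL10A one of 0.19 (-0.13 to 0.50).

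The acidic stalk recruits the elongation factors, and RPLP0 anchors dimers of RPLP1 and RPLP2. RPLP1 gave the lowest estimate apart from RPL10L: controls read 15.01, 15.44 and 15.73 and treated animals 14.94, 15.28 and 15.36. None of the 8 treated animals was above the control median, the 1 member of which this was true, but the lowest controls reached down into the treated range. Its difference was -0.14 (-0.41 to 0.13), ranging from -0.20 to -0.08 as single animals were left out. RPLP0 read 16.99, 17.12 and 17.31 in controls and 16.51, 17.09 and 17.33 in treated animals. The treated minimum came from P29, and the difference was -0.11 (-0.38 to 0.16), -0.035 without that animal. RPLP2 lay on the other side of 0, at 0.063 (-0.22 to 0.35), and at 0.0070 without C18.

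In the small subunit, RPS6, the protein phosphorylated by S6 kinase downstream of mTOR, read 16.48, 16.96 and 17.12 in controls and 16.65, 16.89 and 17.30 in treated animals. The difference in its messenger RNA was 0.030 (-0.23 to 0.29), and phosphorylation was not measured. RPS3, at the entry of the message channel, had a difference of 0.11 (-0.18 to 0.40), which was 0.025 without C18. RPS16, whose tail reaches the decoding site, read 15.83, 16.16 and 16.29 in controls and 15.92, 16.34 and 16.59 in treated animals. For this gene 7 of 8 treated animals exceeded the control median, with a difference of 0.15 (-0.09 to 0.39). RPS2 and RPS14, which had the smallest SDs of the small subunit (0.16 and 0.14), had differences of 0.058 (-0.16 to 0.27) and 0.048 (-0.16 to 0.25).

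RPS27, a zinc-finger protein, read 9.43, 9.99 and 10.62 in controls and 9.91, 10.27 and 10.67 in treated animals. Its difference was 0.26 (-0.14 to 0.67), and 7 of 8 treated animals exceeded the control median. RPS19 and RPS24, both among the genes mutated in Diamond-Blackfan anaemia, stood on opposite sides of 0, at 0.19 (-0.12 to 0.51) and -0.13 (-0.48 to 0.23). RPS15, needed for export of the small subunit precursor, had a difference of 0.13 (-0.16 to 0.41). The X-linked RPS4X had one of 0.015 (-0.23 to 0.26). RPS3A was at -0.097 (-0.36 to 0.16) and RPSA, also known as the laminin receptor, at -0.079 (-0.31 to 0.15). Without C17 the RPSA difference was -0.0094. It was -2.20 when its bright probe was averaged with a dim one described as another gene. That dim probe had values in only 3 controls and 6 treated animals, and its own difference was 0.83 (-0.86 to 2.51). In the other animals the bright probe stood alone, so -2.20 reflects which animals had a dim value.

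RPS27A is made as a fusion with ubiquitin and so supplies both the ribosome and the proteasome pathway. Its probe read 3.55, 4.88 and 5.41 in controls and 4.52, 4.97 and 6.05 in treated animals, giving a difference of 0.38 (-0.20 to 0.97). The SD between its duplicate spots on the same array was 0.72, larger than the SD of 0.55 between animals. RPS27A was the only 1 of 76 members with the larger SD between spots, so spot error was large beside its spread between animals. FAU, which falls outside the naming rule and is fused to a ubiquitin-like domain, had a difference of 0.12 (-0.20 to 0.44), which was 0.023 without C18.

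RPLP0, RPS18 and RPL13A are often used as reference genes in quantitative PCR. RPS18 read 16.20, 16.39 and 16.54 in controls and 15.88, 16.38 and 16.68 in treated animals, with a difference of -0.042 (-0.29 to 0.21). RPL13A was more variable, with 12.77, 13.56 and 14.22 in controls and 12.84, 13.41 and 13.85 in treated animals. Its SD within groups was 0.41, against 0.20 for RPS18 and 0.22 for RPLP0, and its difference was -0.092 (-0.53 to 0.35).

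**Figure D2:**
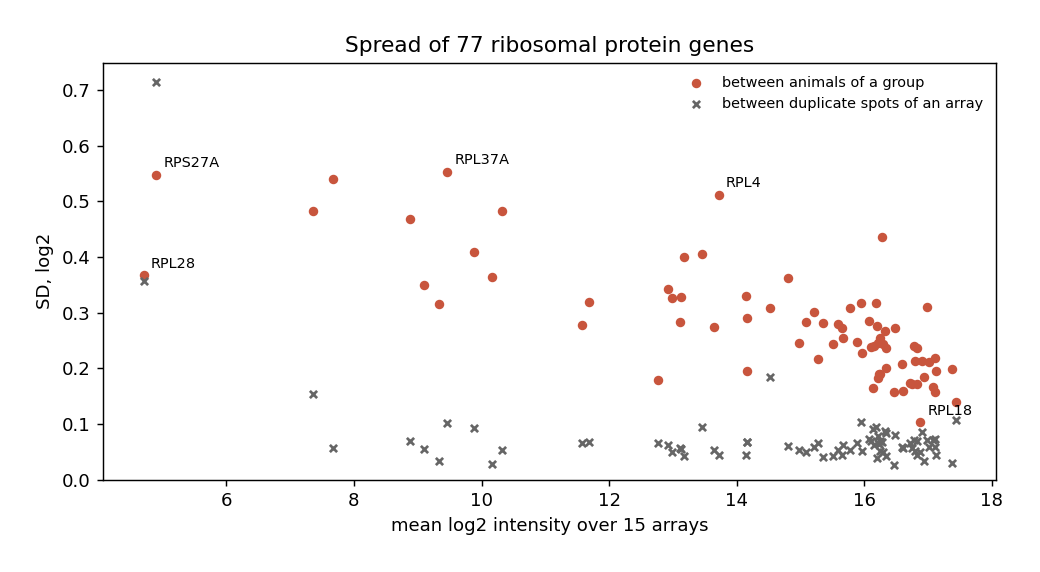
SD of 77 ribosomal protein genes on the log2 scale against their mean log2 intensity, between animals of a group (filled points) and between the 2 spots of a probe on an array (crosses); RPL10L is left out. RPS27A is the member with its cross above its point among those with a value on all arrays, and RPL4 has the largest between-animal SD of members with mean log2 over 11.

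Dim members carried the widest uncertainty. The median SD within groups was 0.48 for the 12 genes with mean log2 under 11, 0.32 for the 17 between 11 and 15 and 0.24 for the 49 above 15. Of the 12 dim genes 9 had a difference above 0, with a median of 0.22, and 4 had an interval within 1.5-fold. Among the 49 bright genes 34 were above 0, with a median of 0.028, and 48 had such an interval. The larger estimates of RPL32, RPL22, RPS27A, RPL37A and RPS27 all came from the dim class.

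Of the paralogs outside the canonical set, none passed the test. RPL3L replaces RPL3 in ribosomes of striated muscle. RPL3L read 14.08, 14.38 and 14.87 in controls and 14.22, 14.60 and 15.03 in treated animals, with a difference of 0.15 (-0.20 to 0.50). RPL3 read 12.94, 13.01 and 13.67 and then 12.68, 13.16 and 13.57, with a difference of -0.020 (-0.34 to 0.30). Both pairs of ranges overlapped throughout. RPS27L, a p53 target related to RPS27, read 12.37, 13.06 and 13.41 in controls and 12.43, 12.85 and 13.37 in treated animals. Its difference was -0.12 (-0.50 to 0.26).

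RPL10L is an intronless copy of RPL10 that is expressed in testis, where it serves male germ cells during the silencing of the X chromosome. Its values spanned more of the scale than those of any other member. In controls it read 2.52 in C17, 4.17 in C18, 11.30 in C20, 6.04 in C21, 8.49 in C22, 6.88 in C23 and 9.001 in C24. In treated animals it read 2.30 in P26, 1.80 in P27, 7.21 in P30, 10.59 in P31 and 5.03 in P32, with no value for P25, P28 and P29. It was well above background on 3 of the 8 treated arrays, those of P30, P31 and P32. Over 7 control and 5 treated animals with a value, the difference was -1.53 (-5.33 to 2.27), -2.83 without P31 and -0.63 without P27.

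PRM1, the protamine that packs sperm DNA, followed nearly the same order of animals. It was highest in C20 (17.84) and P31 (17.48), followed by C24 (16.57) and C22 (16.43), and lowest in P27 (2.25) and P28 (3.94). The 6 animals with the highest RPL10L were also the 6 with the highest PRM1. RPL10 itself varied by 0.55 over all 15 animals, with C20 at 16.70 and P31 at 16.47, its lowest value. What the germ cell transcripts in these samples contribute to other members was not tested.

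**Figure D3:**
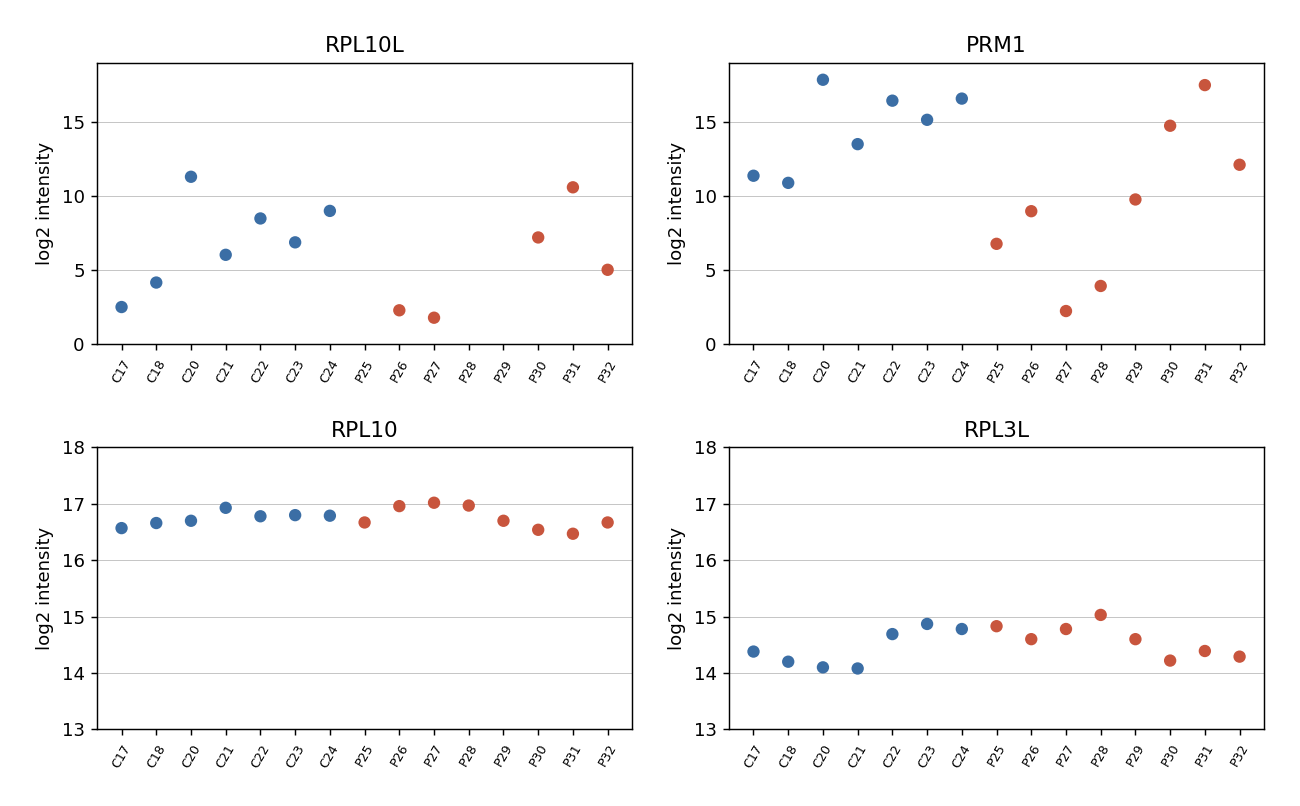
Log2 intensity of RPL10L, the sperm protamine PRM1, RPL10 and RPL3L in each of 7 control (blue, C) and 8 treated (red, P) animals, with an axis from 0 to 19 in the upper panels and from 13 to 18 in the lower panels. RPL10L and PRM1 peak in C20 and P31, while RPL10 stays between 16.47 and 17.02.

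The mean log2 intensity over the 76 genes with a value on every array was 14.67 ± 0.23 (SD, n = 7) for controls and 14.73 ± 0.20 (SD, n = 8) for treated animals. It ran from 14.35 in C20 to 14.93 in C17 among controls and from 14.38 in P31 to 14.99 in P28 among treated animals. The group means differed by 0.053, less than the SD of 0.216 within groups. In C20 only 4 of the 76 genes were above their control mean, in C18 also 4, and in C24 73. Of the treated animals, P31 had 1 gene above the treated mean and P28 had 75. In the means of either subunit C20 and P31 were again lowest within their groups.

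**Figure D4:**
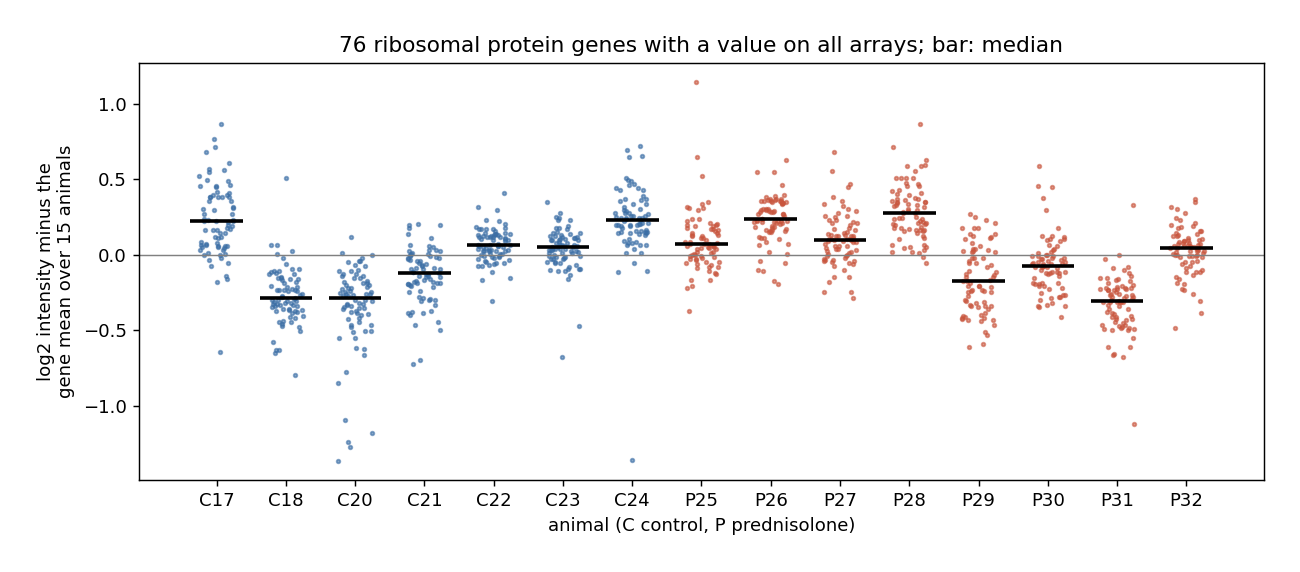
Log2 intensity of each of 76 ribosomal protein genes minus its mean over 15 animals, by animal (controls blue, treated red), with the median as a bar. Nearly all genes of C18, C20 and P31 lie below 0 and nearly all of C24 and P28 above it, in both groups alike.

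C20 and P31, with the lowest ribosomal protein means of their groups, had the highest means of the 10 germ cell markers (11.86 and 11.22) and the highest 75th percentiles before arrays were aligned (10.76 and 10.71). Among other controls, C24 had a germ cell mean of 9.93 beside a high ribosomal protein mean of 14.93, and C18 had 6.35 beside a low one of 14.43. Among treated animals, P28 had the lowest germ cell mean (3.80) beside the highest ribosomal protein mean (14.99). P30 had 8.58 beside 14.64, while P29 had 5.17 beside 14.54. P28 and P26, the treated animals with the highest ribosomal protein means (14.99 and 14.93), had the highest means of the hepatocyte markers (7.64 and 8.26). The next treated animal, P31, had 5.84. Among controls, C18 had the highest hepatocyte mean (6.37) beside a low ribosomal protein mean of 14.43, and C17 came next (6.02) beside 14.93. C24 had the lowest hepatocyte mean (4.89), also beside 14.93. ALB, SERPINA1 and AHSG had no value in C17 and C18. The part of these transcripts in the ribosomal protein means was not tested. Treated arrays lay on 5 slides, and the slide means ran from 14.38 for the slide of P31 to 14.90 for that of P27 and P28. Slides of the control arrays were not used here.

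Ribosomal proteins varied together across animals. After each group's mean was removed, the median Pearson r over 2850 pairs of members was 0.68 across 15 animals, and 96.7% of the pairs were above 0. The median was 0.66 within the large subunit (990 pairs) and 0.68 within the small subunit (465 pairs). Over all genes with a value on every array it was 0.0053, and over other genes of mean log2 over 15 it was 0.076. Leaving out single animals gave medians from 0.63 (without P31) to 0.70 (without P29), and without both C20 and P31 it was 0.61. All genes of an array share its scaling, and with the values as deposited the median was 0.58, with cyclic loess 0.57 and with quantile normalization 0.53, where the median over all genes was 0.16.

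**Figure D5:**
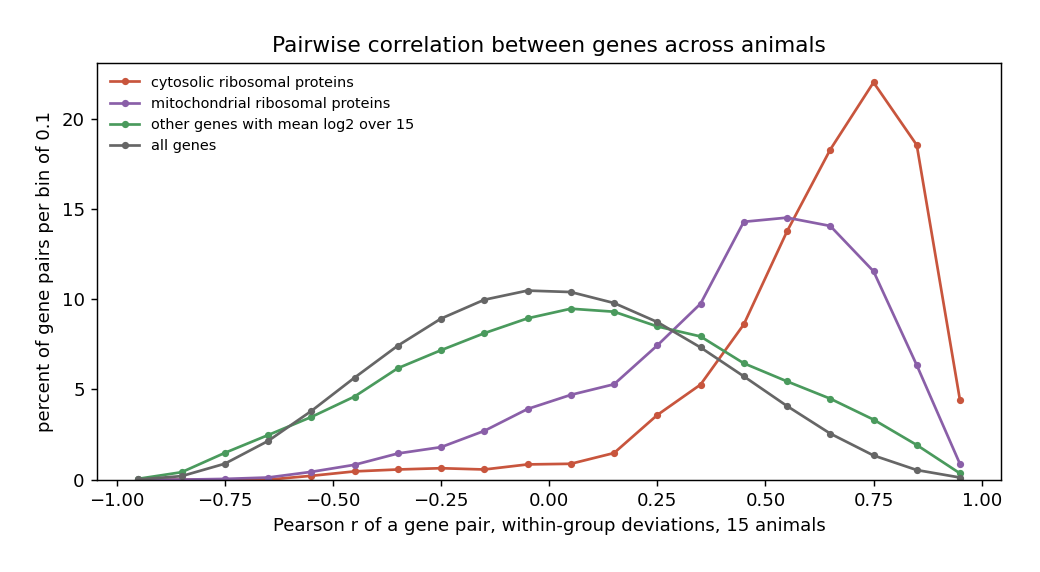
Percentage of gene pairs in each 0.1-wide bin of Pearson r, computed from within-group deviations over 15 animals, for cytosolic and mitochondrial ribosomal proteins, other bright genes and all genes. The cytosolic set lies furthest to the right, with a median of 0.68, followed by the mitochondrial set at 0.48, and all genes centre on 0.0053.

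A gene's r with the mean of the other members had a median of 0.82 and exceeded 0.5 for 72 of 76 genes. It was highest for RPS15A (0.97) and RPL11 (0.97). The 4 genes at or below 0.5 were RPL4 (0.49), RPL10 (0.47), RPL15 (0.30) and RPS27A (-0.29), named here after their values were seen. RPL10, although bright, therefore followed the common pattern less closely than most, and RPL4 had the largest SD of members with mean log2 over 11. Over 11221 other genes, r with the members' mean had a median of 0.11 and exceeded 0.5 for 2361. Among these 11221, also named after their values were seen, the highest r with the members' mean belonged to THOC7 (0.97), a subunit of an RNA export complex. MCTS1, which acts in translation re-initiation, came next (0.96). The most opposite gene was PDPK1 (-0.95), the kinase that activates AKT and S6 kinase, followed by the chromatin remodeller SMARCA4 (-0.94).

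The remaining translation machinery also gave no call. Of the ribosome-like and associated genes outside the naming rule, 4 of 7 had a difference above 0 (median 0.017). The scaffold RACK1 was not well above background on any treated array. Among elongation factors and other TOP transcripts 14 of 22 were above 0 (median 0.030), and 0 of 22 passed limma's adjusted threshold. EEF1A2, the elongation factor isoform of muscle and neurons, read 13.43, 14.07 and 14.15 in controls and 13.70, 14.14 and 14.68 in treated animals. Its difference was 0.27 (-0.06 to 0.59), and 7 of 8 treated animals exceeded the control median. The widespread isoform EEF1A1 was at 0.078 (-0.35 to 0.51), EEF2 at -0.082 (-0.30 to 0.13) and TPT1 at 0.055 (-0.21 to 0.32). PABPC4, a poly(A)-binding protein, was at 0.26 (-0.06 to 0.58), and NPM1, a nucleolar chaperone, at 0.21 (-0.07 to 0.48).

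Initiation factors had 18 of 30 differences above 0 (median 0.028), with none called by limma and 0 at an unadjusted p under 0.05. The lowest p values were those of the eIF2 subunits EIF2S2, at 0.18 (-0.03 to 0.39), and EIF2S3, at 0.28 (-0.06 to 0.61), or 0.71 when its 2 probes were averaged. Mitochondrial ribosomal proteins, which build a separate ribosome for proteins encoded in mitochondrial DNA, had 46 of 76 differences above 0 (median 0.031). Of these 76 genes 0 were called by limma. At an unadjusted p under 0.05 there was 1 of 76, MRPS34, beside 3.24% of all genes. The MRPS34 difference was 0.26 (0.01 to 0.51), with a limma adjusted p of 0.9933. The mean of the mitochondrial set was lowest in C20 (11.12) among controls and in P31 (11.22) among treated animals, as for the cytosolic proteins. However, P29, next lowest of the treated animals for the cytosolic proteins at 14.54, had a mitochondrial mean of 11.47, above the treated median of 11.41. The median pairwise r of the set was 0.48.

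Ribosome biogenesis factors had 37 of 70 differences above 0 (median 0.013), 0 called by limma and 6 of 70 with an unadjusted p under 0.05, where 3.24% of all genes had one. RIOK1, a kinase of small subunit maturation, read 6.83, 7.22 and 8.02 in controls and 5.91, 6.66 and 7.87 in treated animals, and its lowest treated value came from P28. The difference was -0.71 (-1.29 to -0.12), with a limma adjusted p of 0.9933, and the highest animals of the 2 groups were C20 and P31. NOC3L, a nucleolar factor, was well above background on 1 of 8 treated arrays. The median pairwise r of the biogenesis factors was 0.018 and that of the initiation factors -0.0055.

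For RNA polymerase I, which transcribes ribosomal RNA, and its cofactors 7 of 15 differences were above 0 (median -0.026) and 0 were called. TAF1B of its promoter factor was at -0.25 (-0.61 to 0.10), and POLR1H, with values for 5 controls and 4 treated animals, was well above background on 2 treated arrays. In the mTOR and S6 kinase branch 14 of 21 were above 0 (median 0.043), again with 0 called. TSC1, which restrains mTOR, read 7.34, 8.26 and 8.99 in controls and 8.36, 8.58 and 8.93 in treated animals. All 8 treated animals were above the control median, but within the control range, and the difference was 0.43 (-0.01 to 0.87), 0.29 without C17. RPS6KB1, the main S6 kinase, was at -0.13 (-0.45 to 0.20), with a different sign when all its probes were averaged (0.015).

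For several probes the gene identifier and the description named different genes. RPL11 stands here on a probe described as RPL11, while 2 probes filed under its gene identifier describe ELOA, a neighbour with 1 gene between them. These 2 had differences of -0.093 (-0.44 to 0.25) and 0.023 (-0.25 to 0.30). RPS15A had a further probe described as ARL6IP, whose modern namesake ARL6IP1 is the adjacent gene, with a difference of 0.039 (-0.38 to 0.46), and one that was not well above background on any treated array. The second RPSA probe, described as SPRR2A, was well above background on 2 of 8 treated arrays. For RPL15 the 2 probes gave 0.040 (-0.19 to 0.27) and 0.37 (-0.11 to 0.84), the second being the dimmer one.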

How the data were processed

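Total RNA was labelled with Cyanine 3 and hybridised to 1-colour Agilent bovine arrays, 1 per animal. Signals were extracted with Feature Extraction 9.5.1.1, per the file headers. The deposited table holds intensity values for all 15 arrays, and the submitters' processing notes name R 2.11.1; how the values were scaled was not given in the sources used here. On treated arrays the deposited intensity followed the scanner's processed signal (r from 0.999789 to 0.999991). Flags for background and saturation in the deposited scanner files (other values) were used for the 8 treated arrays; those of the controls were not used here.

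Here the log2 of each deposited intensity was taken, the 2 spots of a probe were averaged and arrays were aligned at the 75th percentile over probes with a value on all arrays. The 20894 of 21475 probes with at least 3 values per group were fitted with limma 3.58.1 in R 4.3.3 (lmFit and eBayes, group only), with p-values adjusted over these probes by Benjamini-Hochberg, and the brightest probe stood for a gene. The fit was also run on simulated data, with each probe drawn independently and no values missing, so correlation between genes and missing values were not covered. Names came from accessions, gene identifiers, symbols or descriptions, matched to a RefSeq table (ARS-UCD2.0), for 17502 probes. All p-values measure the spread between animals, and the number of arrays limits precision.

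Genes named are the members with the 6 smallest p-values in each direction, the 6 largest and 3 smallest SDs within groups, a fixed set of well-known members, fixed partners (some results are not reported here) and the 2 genes with the smallest p in each other translation list. Members and lists were chosen with earlier results of these data known. Alternatives were other scalings, probe choice, filters, array weights, an intensity trend, an exact Wilcoxon test, naming without descriptions, and leaving out animals.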

Additional observations from a re-analysis of the deposited data

Results flagged for a closer look

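In 70 groups of 7 or 8 animals tested for a single distant animal, 2 were flagged, and chance flags about 1 in 20 groups. For RPL37A the lowest treated animal, P31, read 8.34, with the next at 9.49 and the highest at 10.05, so the gap was 0.672 of the range. For RPL3 the highest control, C17, read 13.67, with the next at 13.22 and the lowest at 12.94, a gap of 0.615 of the range.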

How the results depend on the processing

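Under all 27 alternatives 0 of the ribosomal proteins were called, and 41 of 54 named genes kept the sign of their difference. Over all tested probes the count called was 0, but 1 without C20 and P31, and from 0 to 1 as single animals were left out (1 without C23 or without P31). The members' median difference ran from 0.0214 (cyclic loess) to 0.0591 (equal medians) over scalings and from -0.0107 to 0.076 as single animals were left out. The count above 0 was 49 with values as deposited, 59 with equal medians, 54 with quantile normalization and 47 with cyclic loess, and ran from 35 to 64 as single animals were left out. For 32 of 34 named ribosomal proteins, some single animal changed the estimate more than 1.5-fold or reversed it. Among the named genes whose sign turned, the largest main differences were those of RPS6KB1 (-0.1258) and RPL4 (0.1227). RPL4 was at -0.0558 with array weights and -0.0225 without C20 and P31. RPL3 was at 0.001606 with equal medians, 0.0625 with array weights and 0.0411 without C20 and P31. RPL10 was at -0.003142 as deposited and -0.009544 with cyclic loess, and RPS4X at -0.006969 with quantile normalization and -0.004583 with cyclic loess. Averaging all probes gave 0.1186 for EEF2 and 0.0145 for RPS6KB1, which was at 0.1548 when descriptions were not used for naming. As single animals were left out, the differences ran from -0.0628 to 0.2499 for RPL4, from -0.088 to 0.1989 for RPL39, from -0.0873 to 0.0727 for RPL3, from -0.033 to 0.0453 for RPL10, from -0.0719 to 0.0322 for RPL11, from -0.2125 to 0.0288 for RPL13A, from -0.0369 to 0.0556 for RPS4X, from -0.0377 to 0.0699 for RPS6, from -0.0927 to 0.0211 for RPS18, from -0.0953 to 0.0128 for RACK1 and from -0.0345 to 0.19 for EEF1A1. The cause of these turns was not tested. No paired analysis was possible because the animals carry different numbers in the 2 groups.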
